A study of Mus musculus with 12 samples.

Results

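Hes1, Hes5 and Hes6 are 3 basic helix-loop-helix genes of the hairy and enhancer-of-split family. They were taken from a Notch-pathway membrane array by their printed symbols, which gave 3 of its 118 genes, each with a single spot. The array was hybridised with RNA of mouse embryonic kidney at 5 gestational stages. E12 and E13 (embryonic days 12 and 13) had 3 arrays each, and E14, E16 and E18 (days 14, 16 and 18) had 2 each, 12 in all. No strain, genotype or treatment was given in the labels, and every group was described there as kidney of the embryo at its stage. Arrays of the same stage are technical replicates by their labels, so the p-values below measure the spread between arrays only. The exception is the trend over gestational day, whose p-values measure the scatter of the 5 stage means around a line. The sources used here do not say whether a stage's RNA was pooled over embryos. None of 19 kidney marker genes, such as Pax2, Wt1 and Six2, is on this array, so the labelled tissue could not be checked. In whole kidney, fewer cells of a type and less RNA per cell cannot be told apart.

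Notch receptors are cleaved after ligand binding, and the freed intracellular part joins the DNA-binding protein RBPJ and a Mastermind co-activator to switch on target genes. Hes1 and Hes5 are classical targets of this complex. Their proteins bind DNA as dimers and recruit Groucho/TLE co-repressors to silence genes that promote differentiation. Hes6 is the atypical relative: in mouse neural cells it opposes Hes1 and does not need Notch for its own expression. In the developing kidney, Notch signalling acts in the early nephron, where it is needed for proximal fates, and Hes1 and Hes5 are commonly read as signs of its activity.

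The promoters are shown because Hes5 is a textbook target of RBPJ and Hes6 is not. RefSeq promoters of build GRCm38.p6, 250 bases before to 50 after a gene's start, were at hand for 2 of the 3 genes. They were searched on both strands for GTGGGAA, a form of the RBPJ binding motif. Hes5 has 1 promoter in that table, at chr4:154960673-154960972 on the + strand, and Hes6 has 2, at chr1:91413989-91414288 and chr1:91413173-91413472, both on the - strand. Capitals mark the motif or its reverse complement.
Hes5: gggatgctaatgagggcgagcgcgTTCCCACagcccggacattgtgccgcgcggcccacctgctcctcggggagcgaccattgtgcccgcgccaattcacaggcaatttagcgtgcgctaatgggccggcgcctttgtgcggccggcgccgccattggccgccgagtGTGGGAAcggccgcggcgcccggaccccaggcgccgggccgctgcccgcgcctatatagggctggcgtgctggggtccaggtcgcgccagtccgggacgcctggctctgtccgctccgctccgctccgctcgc
Hes6 promoter 1: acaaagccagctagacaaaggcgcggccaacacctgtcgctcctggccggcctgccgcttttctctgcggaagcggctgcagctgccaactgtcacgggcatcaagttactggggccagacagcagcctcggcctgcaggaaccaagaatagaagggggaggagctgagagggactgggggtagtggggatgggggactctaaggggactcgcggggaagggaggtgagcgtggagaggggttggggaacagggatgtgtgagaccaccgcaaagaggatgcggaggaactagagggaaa
Hes6 promoter 2: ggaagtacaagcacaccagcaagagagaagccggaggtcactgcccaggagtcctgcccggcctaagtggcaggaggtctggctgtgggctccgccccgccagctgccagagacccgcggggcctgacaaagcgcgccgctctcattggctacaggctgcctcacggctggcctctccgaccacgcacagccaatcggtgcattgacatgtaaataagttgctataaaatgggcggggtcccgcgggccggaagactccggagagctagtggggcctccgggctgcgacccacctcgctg
The Hes5 promoter held the letters 2 times, beginning at -226 on the reverse strand and at -83 on the gene's own strand relative to its start. Neither Hes6 promoter held them. Of 32851 promoters of this length, 2097 (6.38%) held the motif at least once. A match describes letters and not a bound site, and no match says only that these letters are not in these windows.

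All 3 genes were detected throughout. A spot counted as above background where it was brighter than the array's 6 negative-control spots by their mean plus 2 SD, and each of the 3 passed on 12 of 12 arrays. Across arrays the median gene signal ran from 4318.5 to 9617, the mean negative control from 772.5 to 3494.83, and 94 to 112 genes were above background. Hes1 and Hes6 were bright spots, at 7.89 to 45.9 and 7.21 to 52.7 times the mean negative control. Against the mean of the positive-control spots they lay at 0.656 to 0.985 and 0.662 to 1.08 times. Whether such signals neared the upper limit of the reading was not tested. Hes5 was a spot of middle brightness, at 2.50 to 11.3 times the negative controls, so background weighs more on its values. Brightness depends on the probe, so these levels do not rank the transcripts against each other.

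**Figure D1:**
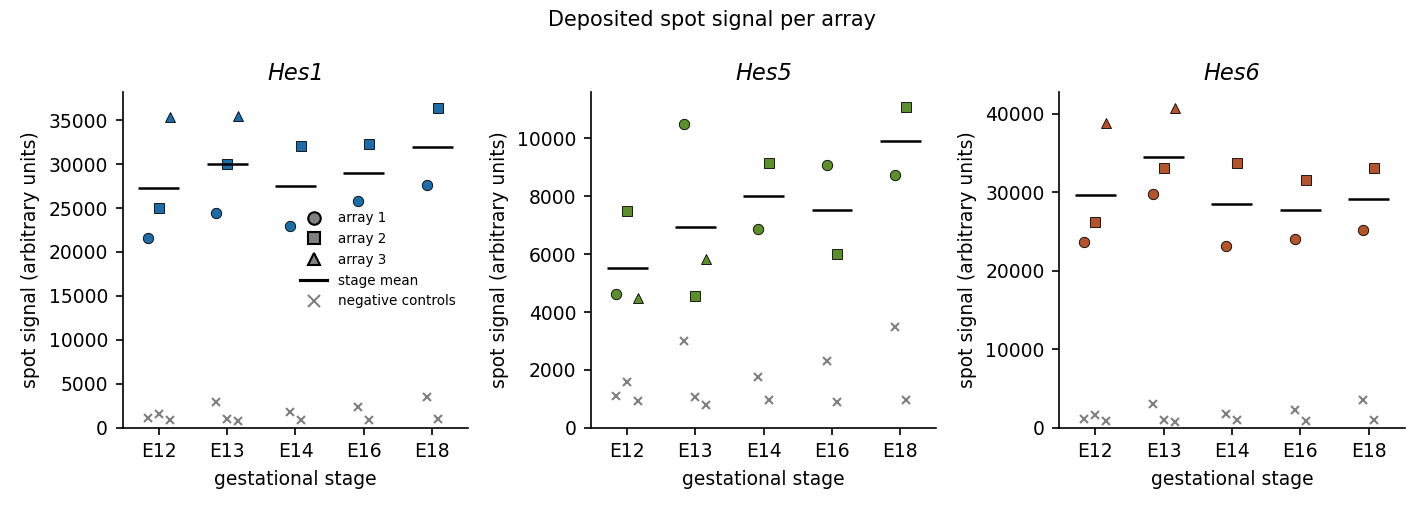
Deposited spot signal (vertical axis, arbitrary units, from 0) of Hes1, Hes5 and Hes6 on each array at E12, E13, E14, E16 and E18, with the stage mean as a bar and the mean of the negative controls as grey crosses. Hes1 and Hes6 lie far above the negative controls on all 12 arrays, and Hes5 lies closest to them on E18 replicate 1, at 2.50 times their mean.

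Hes1 is the Notch target whose product restrains differentiation in many progenitor cells. Its deposited signal was 21533, 24975 and 35312 on the E12 arrays, 24410, 30007 and 35468 at E13, 22977 and 32006 at E14, 25844 and 32222 at E16, and 27569 and 36410 at E18. Every pair of stages overlapped on this scale, and arrays of the same stage lay far apart. After background correction and quantile normalization, which gives arrays a common distribution, the log2 signal of Hes1 was 14.76 ± 0.08 (SD, n = 3) at E12, 14.66 ± 0.03 (SD, n = 3) at E13, 14.66 ± 0.04 (SD, n = 2) at E14, 14.80 ± 0.16 (SD, n = 2) at E16 and 14.88 on both E18 arrays.

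The order of the Hes1 stages from high to low was E18, E16, E12, E13 and E14. Each neighbouring pair in that order overlapped. Both E18 arrays lay above all arrays of E12, E13 and E14 on the normalized scale, whereas the deposited signals overlapped. Such separation was common in this series: 34% of the 106 genes tested had no overlap between E18 and E12, 21.7% between E18 and E13 and 33% between E18 and E14. The other pairs of stages overlapped for Hes1, where the share without overlap was 4.72% for E13 and E12 and 31.1% for E16 and E14. Quantile normalization works by rank, and Hes1 held rank 11 of the 120 gene spots on both E18 arrays, so its SD of 0 there is a tie and not a measure of precision.

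Hes6 is the relative that opposes Hes1 in neural cells. Its deposited signal was 23705, 26209 and 38841 on the E12 arrays, 29740, 33041 and 40747 at E13, 23182 and 33746 at E14, 24032 and 31524 at E16, and 25188 and 33080 at E18. These signals also overlapped between every pair of stages. After normalization the Hes6 log2 signal averaged 14.87 ± 0.06 (SD, n = 3) at E12, 14.91 ± 0.06 (SD, n = 3) at E13, 14.73 ± 0.04 (SD, n = 2) at E14, 14.75 ± 0.13 (SD, n = 2) at E16 and 14.68 on both E18 arrays.

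From high to low, the Hes6 stages ran E13, E12, E16, E14 and E18. Neighbours in that order overlapped except E14 and E18, whose means differed by -0.05 (E18 minus E14), a pair for which no test was run. Both E18 arrays were below all arrays of E12, E13 and E14, and both E14 arrays were below all arrays of E12 and E13. The share of the 106 genes with no overlap was 22.6% for E14 and E12 and 15.1% for E14 and E13. For E18 that share was 34% with E12, 21.7% with E13 and 33% with E14. Hes6 held rank 17 on both E18 arrays, so its SD of 0 there is again a tie.

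Hes5, a Notch target that acts beside Hes1 in neural and other progenitors, had the widest scatter of the 3 in normalized log2 signal. Its deposited signal was 4629, 7499 and 4473 on the E12 arrays, 10481, 4546 and 5841 at E13, 6855 and 9134 at E14, 9079 and 5994 at E16, and 8728 and 11088 at E18. Both E18 arrays were above all 3 E12 arrays on this scale, a scale on which 34.9% of the 106 genes tested had no overlap between E18 and E12, and every other pair of stages overlapped for Hes5. The normalized log2 signal did not keep that separation. It was 12.40 ± 0.82 (SD, n = 3) at E12, 12.51 ± 0.13 (SD, n = 3) at E13, 12.69 ± 0.06 (SD, n = 2) at E14, 12.74 ± 0.69 (SD, n = 2) at E16 and 12.49 ± 0.58 (SD, n = 2) at E18.

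The Hes5 stages ran E16, E14, E13, E18 and E12 from high to low, and each neighbouring pair overlapped. Within stages, the SD of the normalized signal was 0.56 log2 units for Hes5, 0.08 for Hes1 and 0.07 for Hes6. Its median over the 106 genes tested was 0.36. Hes1 and Hes6 held ranks 10 to 19 and 9 to 18 of the 120 gene spots, where their normalized values spanned only 14.63 to 14.96. Their small SD holds for this normalization and is not a measure of precision. With no normalization, the SE of the E18 minus E16 difference was 0.46 for Hes6 and 0.49 for Hes5. The mean negative control was highest on 3 arrays: E18 replicate 1 at 3494.83, E13 replicate 1 at 2984.83 and E16 replicate 1 at 2324.33. The Hes5 signal on them, 8728, 10481 and 9079, was only 2.50, 3.51 and 3.91 times that background, and its part in the Hes5 values was not tested.

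**Figure D2:**
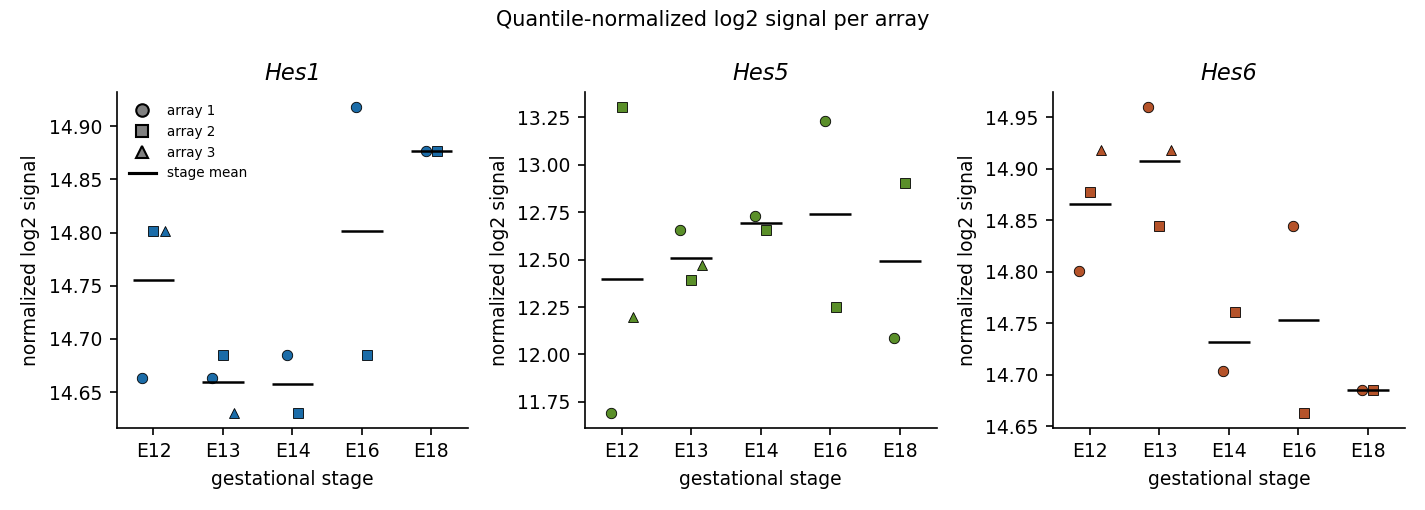
Normalized log2 signal (vertical axis, scale differs between panels) of Hes1, Hes5 and Hes6 on each array by gestational stage, with the stage mean as a bar. The stage mean of Hes1 is highest at E18 (14.88 on both arrays) and that of Hes6 lowest there (14.68 on both arrays), while Hes5 spans 11.69 to 13.30 within E12 alone.

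Stages were compared gene by gene with limma, a linear model with a spread shared over genes, fitted to all 106 genes tested. Over the 5 stages, 0.943% of genes passed the moderated F test at an adjusted p of 0.05, and 0 of the 3 Hes genes did. The limma adjusted p of the F test was 0.925 for Hes1, 0.991 for Hes5 and 0.923 for Hes6. The Hes genes ranked 38, 100 and 32 of 106 by that p, in the same order. No stage difference was detected in these genes.

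E18 was then set against E12, the ends of the series. Hes1 differed by 0.12 log2 units (SE 0.11, 95% interval -0.14 to 0.38, limma adjusted p = 0.73), a ratio of 1.09. Hes6 differed by -0.18 (SE 0.11, 95% interval -0.43 to 0.07, limma adjusted p = 0.517), a ratio of 0.882. Hes5 differed by 0.10 (SE 0.47, 95% interval -0.97 to 1.16, limma adjusted p = 0.969), so a change of up to 2.24-fold upward or to 0.51 of the E12 level lies within its interval. None of the 3 passed, where 1.89% of all genes did. With quantile normalization, the intervals of Hes1 and Hes6 spanned ratios of 0.909 to 1.30 and of 0.743 to 1.05. The tied E18 values of both genes added no spread to them. Those bounds hold for this scaling only. With scaling to array medians, Hes1 differed by -0.49 (SE 0.45), and over the alternative ways of processing Hes6 reached -0.75.

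The steps between stages were no clearer. At E13 against E12 the differences were -0.10 for Hes1, 0.11 for Hes5 and 0.04 for Hes6, and 0% of genes passed (5 of 106 had an unadjusted limma p under 0.05). At E14 against E12 (0.943% of genes passed) they were -0.10, 0.30 and -0.13, and at E16 against E12 (1.89% passed) 0.05, 0.34 and -0.11, in the same order of genes. Between successive later stages, Hes6 differed by -0.17 (SE 0.11, limma adjusted p = 0.926) at E14 against E13, where 0% of genes passed (6 at an unadjusted p under 0.05). At E16 against E14, where 0.943% of genes passed, Hes1 differed by 0.14 (SE 0.12, limma adjusted p = 0.89). At E18 against E16, where 0% passed (4 at an unadjusted p under 0.05), Hes5 differed by -0.25 (SE 0.51, limma adjusted p = 1), a sign that turned without the 3 arrays of highest background (0.73), in the unnormalized signals (0.29), in the deposited ratios (0.25) and under housekeeping scaling (0.20). In these 7 comparisons of 2 stages, 0 of the 3 genes passed in any.

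**Figure D3:**
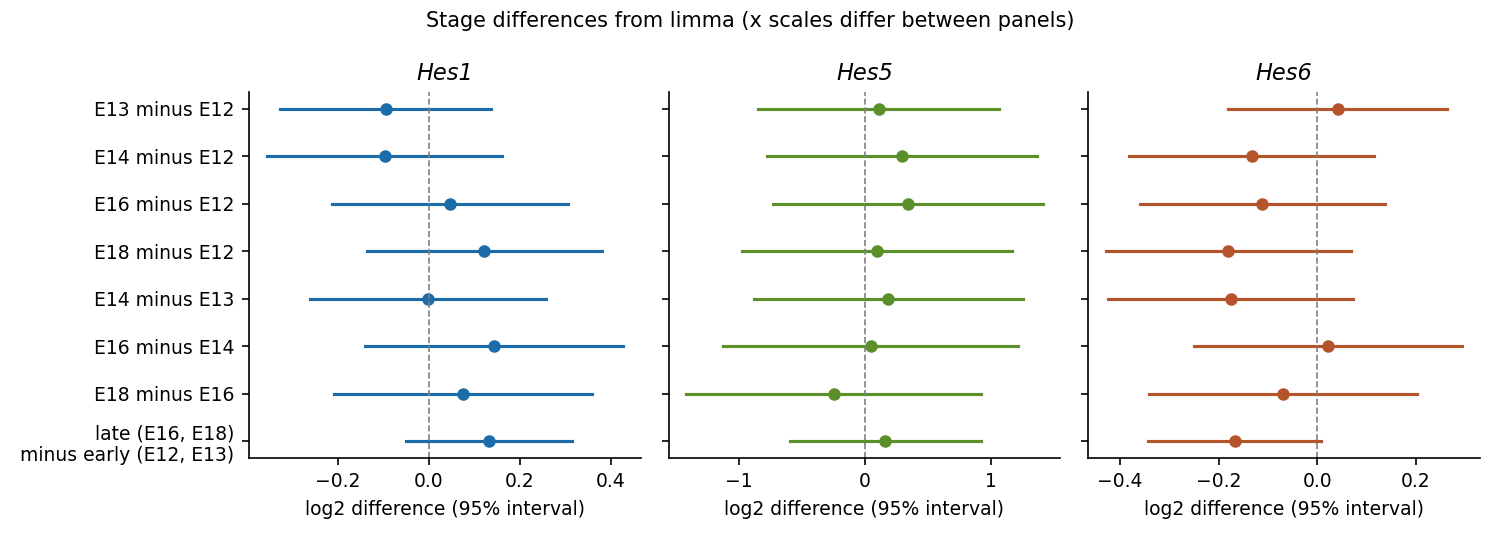
Log2 difference between stages (horizontal axis, scale differs between panels; point, limma estimate; line, 95% interval) for Hes1, Hes5 and Hes6, with comparisons listed down the page. All 24 intervals include 0, and those of Hes5 are the widest, reaching -0.97 to 1.16 for E18 minus E12.

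Late kidney (E16 and E18, 4 arrays) was also set against early kidney (E12 and E13, 6 arrays), each stage weighing equally. Late arrays of Hes6 had a normalized log2 signal of 14.66, 14.68, 14.68 and 14.84, against a lowest of 14.80, a median of 14.90 and a highest of 14.96 on the early arrays. The difference was -0.17 (SE 0.08, 95% interval -0.34 to 0.01, unadjusted p = 0.0599, limma adjusted p = 0.303), a ratio of 0.891. Late Hes1 arrays ran from 14.68 to 14.92, against 14.63 to 14.80 on early arrays, a difference of 0.13 (SE 0.08, 95% interval -0.05 to 0.31, limma adjusted p = 0.506). Late Hes5 arrays ran from 12.08 to 13.23, against 11.69 to 13.30 on early arrays, a difference of 0.16 (SE 0.33, limma adjusted p = 0.892). Late and early arrays overlapped for all 3 genes, where 7.55% of genes had no overlap, and 0 of 3 passed the test, where 3.77% of the 106 genes did. Over gestational day, with 1 value per stage, the slope was 0.03 log2 units per day for Hes1, 0.02 for Hes5 and -0.03 for Hes6 (limma adjusted p = 0.547, 0.821 and 0.522), and 1.89% of genes passed.

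The spots of Hes1 and Hes6 were also compared with each other. Because both lie on the same membrane, their difference within an array is free of any factor that scales the whole array. On the deposited signals, the Hes6 spot was 1.10, 1.05 and 1.10 times the Hes1 spot on the E12 arrays and 1.22, 1.10 and 1.15 times at E13. It was 1.01 and 1.05 times at E14, 0.93 and 0.978 times at E16, and 0.914 and 0.909 times at E18. All 8 arrays up to E14 thus lay above 1, and all 4 arrays of E16 and E18 below it. The 2 spots carry different probes, so the ratio itself is not a ratio of transcripts, and only its movement between stages can be read.

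On the normalized log2 scale the Hes6 minus Hes1 difference averaged 0.11 ± 0.03 (SD, n = 3) at E12, 0.25 ± 0.08 (SD, n = 3) at E13, 0.07 ± 0.08 (SD, n = 2) at E14, -0.05 ± 0.04 (SD, n = 2) at E16 and -0.19 on both E18 arrays. Those equal E18 values come from the tied ranks, and the deposited log2 ratios there were -0.130 and -0.138. The normalized difference was -0.12 ± 0.09 (SD, n = 4) on late arrays and 0.18 ± 0.09 (SD, n = 6) on early arrays. The late minus early difference was -0.30 (2-sided exact permutation test over arrays, p = 0.00476, the smallest that 210 splits allow, and 0.0143 with Benjamini-Hochberg adjustment over the 3 pairs of members). The replicate number was taken to pair arrays, and with labels exchanged only within a number the difference was -0.29 and the call was lost (exact permutation p = 0.0556, the smallest that those 36 splits allow, adjusted p = 0.167). That test used 4 late and 4 early arrays, since the arrays numbered 3 are all early and were left out. The ranges of the late and the early arrays did not overlap. Of the 5565 pairs that can be formed from the 106 genes, 7.48% had no overlap either, a total of 416 pairs that includes this pair. Without the 3 arrays of highest background, the difference was -0.27, with an exact permutation p of 0.0476 and an adjusted p of 0.143, the smallest that 2 late and 5 early arrays allow. The 4 late arrays come from 2 stages and the 6 early arrays from 2, and the test covers array spread and not the spread between embryos.

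The pairs with Hes5 did not separate. Hes5 minus Hes1 was -2.22 ± 0.49 (SD, n = 4) on late arrays and -2.26 ± 0.51 (SD, n = 6) on early arrays, a difference of 0.03 (exact permutation p = 0.933). Hes6 minus Hes5 was 2.10 ± 0.48 (SD, n = 4) on late arrays and 2.43 ± 0.51 (SD, n = 6) on early arrays, a difference of -0.33 (exact permutation p = 0.348, adjusted p = 0.521). Late and early arrays overlapped in both pairs. Over the 12 arrays, which share normalization and stage, Pearson's r was 0.37 between Hes1 and Hes5, -0.19 between Hes1 and Hes6 and 0.15 between Hes5 and Hes6, given as a description.

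**Figure D4:**
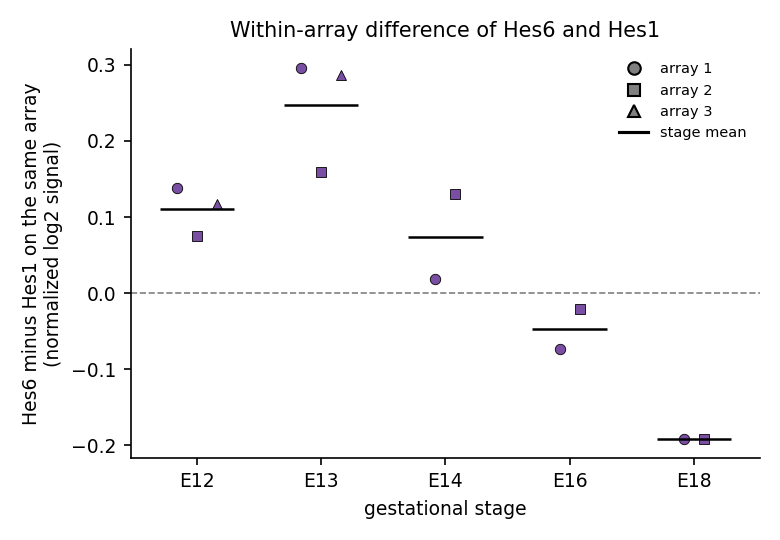
Difference of the normalized log2 signals of Hes6 and Hes1 on the same array (vertical axis) by gestational stage, with the stage mean as a bar and 0 as a dashed line. All 8 arrays of E12, E13 and E14 lie above 0 and all 4 arrays of E16 and E18 below it, with both E18 arrays at -0.19 through tied ranks.

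The genes whose pattern was most like each member were found by Pearson's r of the normalized log2 signal over the 12 arrays, as a description. For Hes1 they were Fos, an immediate early transcription factor (r = 0.84), Fzd6, a Wnt receptor (r = 0.82), and Aph1a, a gamma-secretase subunit (r = 0.60). For Fos and Hes1 the r over the 5 stage means was 0.98. Fos passed in late against early kidney, with a difference of 1.07 (SE 0.23, limma adjusted p = 0.0382), whereas that of Hes1 was 0.13. For Hes6 they were Gli2, Gli3 and Gli1 (r = 0.84, 0.80 and 0.78), the transcription factors of the Hedgehog pathway. Late minus early, Gli3 differed by -0.51, Gli1 by -0.43 and Gli2 by -0.31, and 0 of these 3 passed (limma adjusted p = 0.0549, 0.164 and 0.192). For Hes5 they were Fzd6, Gsk3b and Dll1 (r = 0.68, 0.68 and 0.65), and over the 5 stage means Gsk3b was at -0.32, so that likeness lay in the scatter between arrays of a stage.

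The other genes of the pathway give the setting for late against early kidney, where the median over all 106 genes was 0.04. Among the Hey genes, the closest relatives of the Hes family and also Notch targets, 0 of 3 passed, with Heyl at 0.27, Hey1 at -0.14 and Hey2 at -0.22 and a median of -0.14. Among 6 co-repressors on the array, through which Hes proteins and RBPJ silence genes, 0 passed. Their median was -0.04, with Nrarp, a Notch target that limits the pathway, at 0.28 and hr, the hairless co-repressor, at -0.53 (limma adjusted p = 0.12). Of the activation complex, 0 of 5 tested genes passed, with a median of 0.04. Ep300, a histone acetyltransferase, was at 0.43, Rbpj at 0.11 and Snw1 at -0.34, and Pcaf was not tested because it was above background on only 3 of 12 arrays.

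Upstream, 0 of 4 receptors and 0 of 5 ligands passed in late against early kidney. The median was 0.14 for the receptors, with Notch1 at 0.43, Notch2 at 0.17 and Notch4 at 0.10, and 4 of 4 lay above 0. The median was 0.34 for the ligands, with Jag1 at 0.50 (limma adjusted p = 0.0549), Dll1 at 0.48 and Jag2 at 0.34, and 4 of 5 lay above 0, with Dll3 at -0.15. Both counts of signs are for quantile normalization, where the median of all genes was 0.04. Scaling to array medians placed that median at -0.27, so such counts depend on the scaling. Jag2 was above background on 6 of 12 arrays. Against E12 alone, 1 ligand, Jag1, passed at E16 (0.95, limma adjusted p = 0.0212). It passed at E18 too (0.85, limma adjusted p = 0.0476), and 1.89% of all genes passed in each of these comparisons. Jag1 was already at 0.81 at E13 against E12 (limma adjusted p = 0.059). Of markers of other cell types, 6 keratinocyte genes were on the array, and 2 of these, Krt1 and Lor, fell in late kidney (-0.77 and -1.41, limma adjusted p = 0.0036 and 0.0188). The others did not pass, with Krt14 at -0.84, Krt10 at -0.16, Krt5 at -0.03 and Ivl at 0.29. Ivl was above background on 5 of 12 arrays. The deposited signal summed over all 6 keratinocyte genes was 29837 to 48790 on late arrays and 38450 to 61319 on early arrays. Its part in the Hes values was not tested. Of 4 blood genes tested, 0 passed (median 0.07), and the neuronal gene on the array, Mtap1b, was at -0.01. No gene of the endothelial and muscle lists was on the array.

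The direction of Hes1 depended on the scaling. Under scaling to array medians, late minus early was -0.28 for Hes1 and -0.55 for Hes6, and that scaling placed the median of all genes at -0.27. Hes1 thus lay close to the median of all genes there, and Hes6 below it. For Hes5, late minus early was 0.40 with housekeeping scaling, 0.45 with no normalization and 0.43 with the deposited ratios, against 0.16 with quantile normalization, and 0 of these values passed (limma adjusted p = 0.626 to 0.892). In the deposited ratios, each gene's signal relative to Ppia, Hes5 averaged 0.141 ± 0.04 (SD, n = 3) at E12, 0.151 ± 0.07 (SD, n = 3) at E13, 0.183 ± 0.04 (SD, n = 2) at E14, 0.178 ± 0.07 (SD, n = 2) at E16 and 0.208 ± 0.05 (SD, n = 2) at E18.

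**Figure D5:**
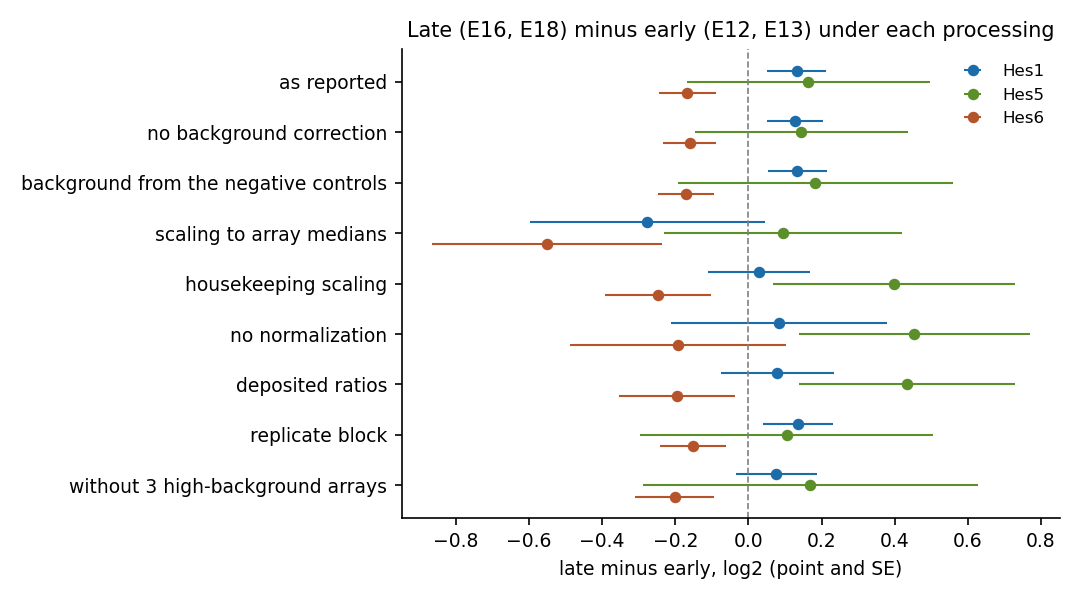
Late (E16, E18) minus early (E12, E13) log2 difference (horizontal axis; point and SE) for Hes1, Hes5 and Hes6 under 9 ways of processing, listed down the page. Hes6 lies below 0 in all 9, Hes1 falls below 0 only under scaling to array medians (-0.28), and Hes5 moves between 0.09 and 0.45.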

How the data were processed

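RNA of 12 mouse embryonic kidney samples was amplified, labelled with biotin and hybridised to a membrane read by chemiluminescence, per the labels' protocols and the series' design text. The authors deposited 1 whole-number intensity per spot for 128 spots, of which 120 were gene spots, with no background column. The sources used here name no image software. In a second deposited table, each value was a ratio that equalled the signal minus the array's lowest spot, over the mean Ppia signal minus that spot. Background was corrected by normexp with an offset of 50 on all spots, since negative controls lay well above 0, control spots were left out, and log2 values were quantile-normalized. Of 118 genes, 106 were tested, those brighter than the background limit (the 6 negative controls' mean plus 2 SD) on all arrays of 1 stage or more. The stage comparisons used limma (version 3.58.1, under R 4.3.3, with 7 residual and 1.72 prior degrees of freedom), 2-sided, with Benjamini-Hochberg adjustment over the 106 genes. The code was tested on simulated data. Same-numbered arrays of E12 and E13 had weakly correlated deviations (r = 0.122, 0.163 and 0.222 over genes), against -0.238 to 0.0923 for arrays of unlike number. A gene's deviations sum to 0 within a stage, so positive values for like numbers push those for unlike numbers down. The 2 sets of r are thus not independent. On these values the number was taken to pair arrays, a pairing that rests on these data alone and was checked only between E12 and E13. Members, lists, pairs of members and tests were chosen with earlier results of these data known. Named genes were the 3 members, for each of 5 lists of pathway genes up to 3 members with the smallest p for late minus early, and for each member the 3 most like genes. One gene that this rule names is not reported here. Alternatives were other background steps, scalings, filters, priors, a replicate block (also as a permutation within replicate numbers, added after seeing the data), the deposited ratios, 2 stages alone and fits without 1 array or stage. The number of arrays limits the precision.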

Additional observations from a re-analysis of the deposited data

Results flagged for a closer look

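Among the late arrays of Hes6, E16 replicate 1 stood apart at a normalized log2 signal of 14.84, above the other 3 late arrays, the nearest of which was at 14.68. The gap was 0.881 of the whole range of the 4 arrays. On the deposited scale E16 replicate 1 was instead the lowest of the 4 late arrays for Hes6, at 24032. Both E18 arrays were tied at 14.68 after normalization. This array was also one of the 3 with the highest negative controls (2324.33). In all, 12 groups of arrays were examined in this way, of which chance alone sets apart about 1 in 20. Without it, late minus early was -0.21 for Hes6, against -0.17 with it.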

How the results depend on the processing

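Leaving out the 3 arrays with the highest negative controls was an alternative chosen after seeing the data. For every change listed, the cause was not tested. None of the 696 recomputed values of Hes1, Hes5 and Hes6 passed the threshold, and 51 changed sign (14 of Hes1, 27 of Hes5 and 10 of Hes6). Without those 3 arrays the Hes6 minus Hes1 difference was -0.27, and its adjusted p of 0.143 is the smallest that 21 splits and 3 pairs allow, leaving 0 pairs past the threshold. Over its alternatives other than that and the replicate block, its adjusted p ran from 0.0143 to 0.0357 and its value without 1 array from -0.33 to -0.27. Values that changed sign follow. With no normalization, Hes1 was 0.13 for E13 minus E12 and 0.018 for E14 minus E12, Hes5 was -0.13 for E16 minus E14 and 0.29 for E18 minus E16, and Hes6 was -0.040 and 0.033 in those last comparisons. With array medians, Hes1 was -0.17 for E16 minus E12, -0.49 for E18 minus E12, -0.32 for E18 minus E16, -0.28 for late minus early and -0.065 per day, Hes6 was -0.0056 for E13 minus E12, and Hes5 was -0.027 for E16 minus E14. With housekeeping scaling, Hes5 was -0.10 and Hes6 -0.00957 for E16 minus E14, and Hes5 0.20 for E18 minus E16. With the deposited ratios, Hes5 was -0.077 for E16 minus E14, and Hes5 0.25 and Hes6 0.00208 for E18 minus E16. Without the 3 arrays, E16 minus E12 was -0.0661 for Hes1 and -0.19 for Hes5, E16 minus E14 was -0.49 for Hes5 and -0.065 for Hes6, and E18 minus E16 was 0.73 for Hes5 and 0.025 for Hes6. With only the arrays of the 2 stages, Hes5 was -0.0088 for E16 minus E14, and without stage E12 its slope was -0.0065. With the replicate number as a block, Hes1 was 0.00239 for E14 minus E13, and the block changed no limma call. In the permutation test, exchanging labels only within a replicate number was also chosen after seeing the data. It gave -0.29 for Hes6 minus Hes1 and -0.031 for Hes5 minus Hes1. For Hes6 minus Hes1 the adjusted p was 0.167, and its exact permutation p of 0.0556 is the smallest that 36 splits allow. No pair could therefore pass the threshold in this test, and 0 did.

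Without 1 array, ranges that crossed 0 were, for Hes1, -0.030 to 0.026 (E14 minus E13), -0.071 to 0.16 (E16 minus E12) and -0.036 to 0.19 (E18 minus E16). For Hes6 they were -0.067 to 0.11 (E16 minus E14) and -0.16 to 0.022 (E18 minus E16). For Hes5 they were -0.23 to 0.58 (E13 minus E12), -0.036 to 0.76 (E14 minus E12), -0.16 to 0.82 (E16 minus E12), -0.31 to 0.56 (E18 minus E12), -0.45 to 0.55 (E16 minus E14), -0.74 to 0.26 (E18 minus E16), -0.084 to 0.40 (late minus early), -0.040 to 0.082 per day (trend) and -0.15 to 0.23 (Hes5 minus Hes1, late minus early). Counts over all genes ran over all alternatives from 0 to 6 in the F test (1 as reported), from 0 to 8 in late minus early (4) and from 0 to 12 in the trend (2). Against E12 they ran from 0 to 1 at E13 (0 as reported), 0 to 2 at E14 (1), 0 to 4 at E16 (2) and 0 to 7 at E18 (2). Between successive later stages they ran from 0 to 1 for E14 against E13 (0 as reported), 0 to 2 for E16 against E14 (1) and 0 to 0 for E18 against E16 (0). Where a stage was left with 1 array, that array was assumed to vary like the others. Hes5 had the lowest signal over background of the 3 genes.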

Other observations

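The array numbered 1 had the lowest deposited Hes1 signal of its stage at each of the 5 stages (21533, 24410, 22977, 25844 and 27569 from E12 to E18) and the lowest Hes6 signal as well (23705, 29740, 23182, 24032 and 25188). The positive-control spots were lowest on those arrays too, with means of 31848, 33081.5, 35043, 30507 and 35330.5. For Hes5, the array numbered 1 was the lowest of its stage at E14 and E18, the highest at E13 and E16, and between the others at E12.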
